A study of Homo sapiens with 22 samples.

Results

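RNA of SH-SY5Y cells carrying a short hairpin RNA against the CASC15-003 transcript (sh003) was compared with RNA of cells carrying a scrambled hairpin, both collected at day 0 in serum without retinoic acid. SH-SY5Y is an established human neuroblastoma line with a sympathetic neuroblast character. The comparison takes the day 0 columns of these hairpins, 6 of the 22 libraries of the series, paired by the batch number in their names. The sh003 libraries were 3: hairpin sh2 in batch 1, hairpin sh2 in batch 2 and hairpin sh1 in batch 3. The control libraries were 3, with 1 in each of the same batches. All were stable cells made by lentiviral transduction and puromycin selection, so the control cells had also been transduced and selected. A single line was used, the labels do not say whether the cells of a hairpin were pools or clones, and hairpin sh1 and batch 3 cannot be told apart at day 0. Other libraries are set beside these. At day 0 they are 2 sh004 libraries (hairpins against the CASC15-004 transcript, batch 2). After 7 days of retinoic acid they are 3 sh003, 2 control and 2 sh004 libraries, the last used for the spread alone. There are also 2 sh003 spheres with 1 control sphere. All 15 monolayer libraries were fitted together, so the spread behind each p-value comes from all of them.

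CASC15 is a long non-coding RNA gene on chromosome 6, next to SOX4, in a region where common variants are associated with neuroblastoma. Neuroblastoma cells take up an adrenergic state, with the sympathetic transcription factors and catecholamine enzymes, or a mesenchymal state, with extracellular matrix, adhesion and inflammatory genes. A hairpin is processed to a short RNA that guides cleavage of transcripts with a matching site.

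The sites of both hairpins lie close together in 1 exon, and they are shown because they define which CASC15 transcripts the hairpins can reach. Each hairpin is given in the labels as a 21-base sense sequence, printed here 5′ to 3′ in lower case.
sh1: ctagcactgacctccttcatt
sh2: ctttccatcagccaacaatat
In the GENCODE release 29 transcripts (GRCh38) sh1 matched chr6:21668702-21668722 and sh2 matched chr6:21668743-21668763, both on the plus strand. Both sites are in exon 3 of the 7 exons of CASC15-205 and in exon 2 of the 12 exons of CASC15-206. Only these 2 of the 8 annotated CASC15 transcripts hold both sites, and no transcript of another gene held a full match to either hairpin. The stretch from the first to the last site base covers 62 bases, with the sites in capitals and 20 bases between them.
CASC15 exon: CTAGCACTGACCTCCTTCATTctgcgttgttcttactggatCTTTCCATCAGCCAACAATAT
The labels' name CASC15-003 follows another transcript numbering and was not mapped to these names.

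CASC15 as a gene was not lower in the sh003 libraries. It had 1.95, 1.57 and 2.65 RPKM (reads per kilobase of gene and M assigned reads) in the sh003 libraries of batches 1, 2 and 3, against 1.52, 1.31 and 2.38 RPKM in the control libraries of the same batches. Each sh003 library was slightly above the control of its batch, and the groups overlapped. The mean difference was 0.20 ± 0.16 (SE) on the scale of log2(RPKM + 0.5), which is used for every difference given here and understates the change of genes with low values (limma, adjusted p = 0.666). The value sums all transcripts of the gene, so it does not show the level of the targeted ones, and the hairpin labels were not checked by it. The neighbouring gene SOX4, which encodes a transcription factor of neural progenitors, differed by 0.48 (adjusted p = 0.431), USP36 by -0.01 and CHD7, a chromatin remodeller, by -0.52 (adjusted p = 0.267). SOX9, a transcription factor of neural crest and cartilage, had 43.9, 21.9 and 20.9 RPKM in sh003 and 10.4, 4.40 and 22.3 RPKM in control libraries (1.38, adjusted p = 0.320), so the batch 3 pair was nearly level.

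The libraries held 12.1, 28.4 and 25.1 M assigned reads in sh003 and 11.9, 31.8 and 28.0 M in control cells. The first sh003 library carries a differentiation tag against its day 0 title. The retinoic acid targets CYP26A1 and CYP26B1 were under 1 RPKM in all 6 libraries. The 11 retinoid genes checked summed to 137, 162 and 168 RPKM in sh003 and 158, 159 and 425 RPKM in control libraries. Whether the title or the tag is right was not tested. Batch 1 stood apart in both groups: 166 genes were at 0 in its 4 monolayer libraries and at 1 RPKM or above in the other 11, 311 genes showed the reverse, and none of the genes called below was among either set. CCL2, a monocyte chemokine, was high in both batch 3 libraries, with 30.4, 16.6 and 873 RPKM in sh003 and 1.11, 1.08 and 909.8 RPKM in control libraries. All 18 adrenergic core factors tested reached 1 RPKM in at least 1 of the 6 libraries. Of these, 14 had a lower mean in sh003 cells, as did 60.1% of all genes tested. HAND2, a sympathetic transcription factor, had 239, 291 and 255 RPKM in sh003 and 235, 275 and 224 RPKM in control cells, but TH, the tyrosine hydroxylase gene that marks catecholamine synthesis, was at 0.0509, 0.0326 and 0.0123 RPKM in sh003 and 0.130, 1.57 and 0.0110 RPKM in control cells.

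At an adjusted p under 0.05 in limma, with batch as a block, 39 genes rose and 10 fell in sh003 cells, 0.252% of the 19461 genes tested (0.2% as rises and 0.0514% as falls). Of the 39 that rose 37 are protein coding, and of the 10 that fell 4 are. Among the genes that rose are those of a cytokine, complement components, matrix proteins, receptors and immediate early factors. In 45 of the 49 genes the 3 sh003 and the 3 control libraries did not overlap, which held for 9.02% of all genes tested. The exceptions were EGR1, HAS2, PRNP and an unnamed transcript. These are the libraries the genes were called on, so the lack of overlap is not separate support. The count rests on the pairing and on the spread shared with the other monolayer libraries. Without the block the estimates are the same but 1 gene was called, IL33. With the block kept but the 6 libraries of the comparison alone, 0 genes were called. The count was 1 without either day 0 library of batch 1 and 2 without either day 0 library of batch 2. It was 130 without either batch 3 library, but a batch left with 1 library was dropped, so both fits lack all of batch 3. It was 262 or 261 without an sh004 library of day 7, and 9, 27, 14, 30, 31 and 30 without control day 7 batch 1, control day 7 batch 2, sh003 sh2 day 7 batch 1, sh003 sh2 day 7 batch 2, sh004 sh1 day 0 and sh004 sh2 day 0.

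**Figure D1:**
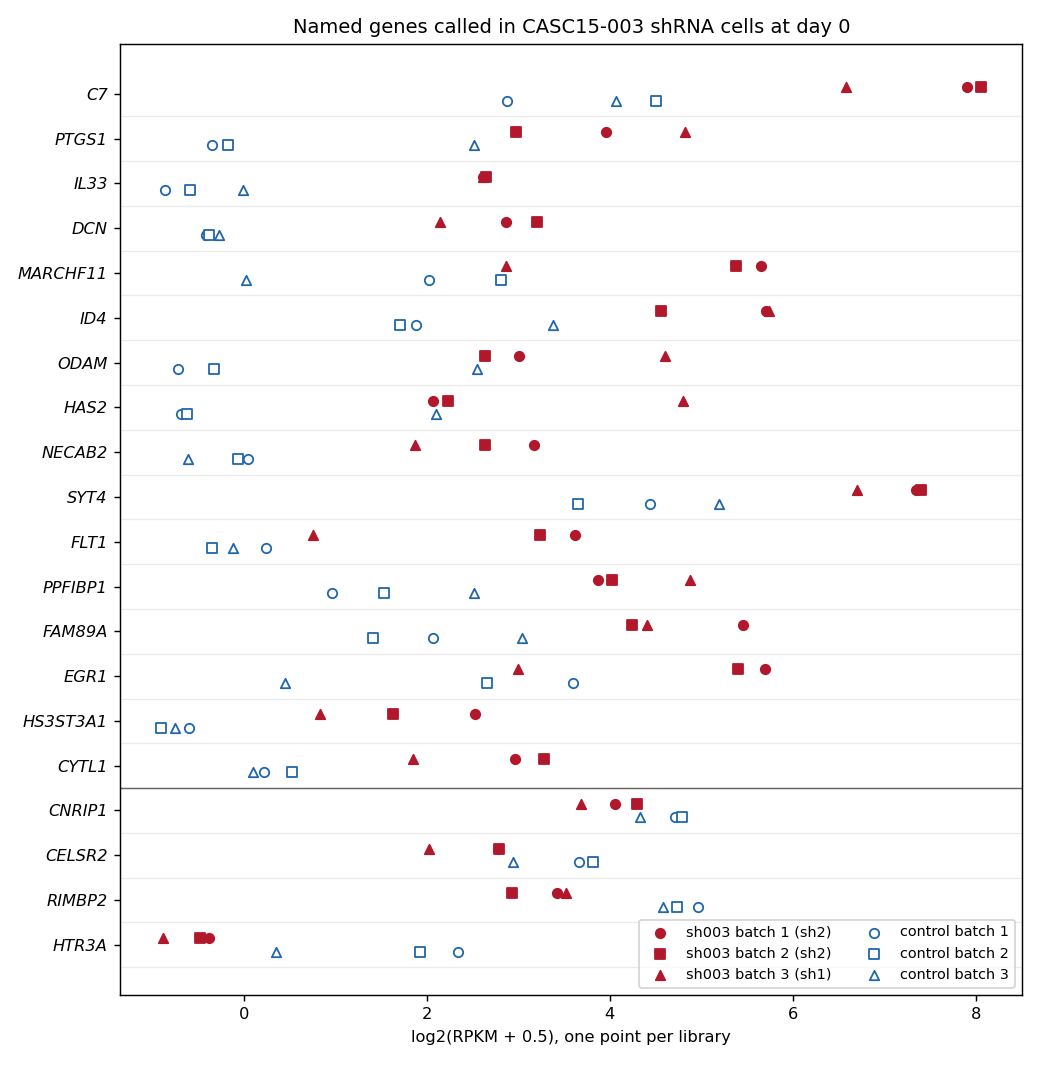
Level of 20 named genes in each day 0 library on the scale log2(RPKM + 0.5), with sh003 libraries as filled red marks above control libraries as open blue marks, and the mark's shape giving the batch. All 3 sh003 marks lie right of the control marks for C7, IL33, DCN, ID4 and SYT4, and left of them for RIMBP2 and HTR3A.

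IL33, on chromosome 9 (ENSG00000137033), encodes interleukin 33, an alarmin cytokine kept in the nucleus and released on damage. It had 5.62, 5.77 and 5.62 RPKM in sh003 libraries, against 0.0521, 0.165 and 0.498 RPKM in control libraries. The 3 sh003 libraries were nearly equal and far above every control. The control levels rest on 2, 17 and 45 reads, and those of sh003 on 220, 529 and 457 reads. The difference was 3.11 ± 0.23 (SE; adjusted p = 0.00212, and 0.00704 without the block). IL33 was called in each of the 15 fits that left out 1 library and in 12 of 15 other alternatives. The fits without either batch 3 library are the same fit, without all of batch 3, which is also 1 of the other alternatives. IL33 was the only gene of the 49 called in all 15 fits that left out 1 library. Over the 49 the number of these fits with a call had a median of 7 and was as low as 2 (CNRIP1), with 11 for DCN, 10 for RIMBP2, 8 for ID4, 6 for SYT4, 5 for C7, 4 for PTGS1 and FLT1, and 3 for CELSR2.

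The complement genes C7 and C6 rose together. C7 (ENSG00000112936, chromosome 5), a component of the membrane attack complex, had the largest change of the called genes on the log2(RPKM + 0.5) scale. It had 239.5, 267 and 94.9 RPKM in sh003 libraries, against 6.83, 22.2 and 16.3 RPKM in control libraries. The sh1 library of batch 3 was the lowest of the sh003 libraries and still above every control. The difference was 3.70 ± 0.53 (SE; adjusted p = 0.0309), and 5.03, 3.56 and 2.51 in the pairs of batches 1, 2 and 3. C6, the component that joins the complex before C7, had 1.11, 1.20 and 2.58 RPKM in sh003 and 0.124, 0.0928 and 0.475 RPKM in control libraries (1.52 ± 0.18, adjusted p = 0.0183). All sh003 values again lay above all control values. Of the 15 complement genes tested, 2 were called, both as rises, and 9 were higher in all 3 pairs, a pattern that 13.4% of all genes showed. CD59, which blocks the membrane attack complex on the cell's own surface, had 39.6, 31.0 and 61.9 RPKM in sh003 and 12.8, 14.2 and 35.9 RPKM in control libraries (1.16, adjusted p = 0.0779). C1R, a protease of the first complement complex, differed by 1.66 (adjusted p = 0.112).

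DCN (ENSG00000011465, chromosome 12) encodes decorin, a small proteoglycan that binds collagen fibrils. It had 6.78, 8.71 and 3.93 RPKM in sh003 libraries, against 0.250, 0.268 and 0.332 RPKM in control libraries. The controls were alike and all low. The difference was 3.09 ± 0.36 (SE; adjusted p = 0.0183). HAS2, the synthase of the matrix polysaccharide hyaluronan, rose by 2.77 ± 0.39 (adjusted p = 0.0275), with 3.70, 4.19 and 27.4 RPKM in sh003 and 0.120, 0.150 and 3.79 RPKM in control libraries. Both batch 3 libraries were high, so the groups overlapped while the 3 pairs differed by 2.76, 2.85 and 2.70. Enzymes that sulfate matrix polysaccharides also rose, HS3ST3A1 (heparan sulfate) by 2.42 and CHST11 (chondroitin sulfate) by 1.08 (adjusted p = 0.0129 and 0.0263). ODAM, a secreted protein of tooth enamel formation, rose by 2.91 ± 0.31 (adjusted p = 0.0129), with the highest value in each group again in batch 3.

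Matrix genes as lists were higher on average, with few calls. Of 18 matrix proteoglycan and glycoprotein genes tested, DCN alone was called and 9 were higher in all 3 pairs (13.4% of all genes). Of the 18, 7 were higher without overlap between the groups, which held for 3.91% of all genes. Their median change was 1.24, beside -0.06 over all genes tested. The median was 1.65 and 1.88 in the pairs of batches 1 and 2 (sh2) and 0.23 in the pair of batch 3 (sh1). None of 10 collagen genes was called, 6 were higher in all 3 pairs, and the median was 0.80, again lower in batch 3 at 0.11. COL5A1, a chain of fibrillar collagen V, had 65.3, 41.0 and 40.6 RPKM in sh003 and 2.65, 1.63 and 11.3 RPKM in control libraries. These groups did not overlap, but the difference of 3.49 ± 0.82 (SE) missed the threshold (adjusted p = 0.128). TNC, the adhesion-modulating glycoprotein tenascin C, had 58.3, 31.4 and 86.9 RPKM in sh003 and 8.0, 2.62 and 80.4 RPKM in control libraries, so the batch 3 pair was nearly level (2.09, adjusted p = 0.127). Of 26 integrin and adhesion genes none was called and 14 were higher in all 3 pairs. ITGA5, the fibronectin receptor chain, differed by 1.54 ± 0.27 (adjusted p = 0.0547). None of 16 mesenchymal state factors and none of 21 matrix proteases and inhibitors was called, and 8 of either list were higher in all 3 pairs. FOSL2, a mesenchymal AP-1 factor, differed by 1.53 (adjusted p = 0.110), and PLAU, the urokinase plasminogen activator, by 1.63 (adjusted p = 0.150).

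Markers of other cell types moved in part with these genes. The 10 fibroblast markers, which include DCN, summed to 240.2, 208 and 402 RPKM in sh003 and 124, 88.4 and 369 RPKM in control libraries, so the sum was higher in each of the 3 pairs. All 8 of them that were tested had a higher mean in sh003 cells, as had 39.8% of all genes. Of these 8, 5 were higher in all 3 pairs, as were 13.4% of all genes. The median change of the 8 was 0.77, with 0.93, 1.08 and 0.25 in the pairs of batches 1, 2 and 3. POSTN, the periostin gene, was at 0 in all 6 libraries. Of 10 Schwann cell markers 8 were under 1 RPKM in all 6 libraries, among them the defining factor SOX10, and the sums were 19.3 to 46.8 in sh003 and 18.1 to 36.2 RPKM in control libraries. All 8 endothelial and all 9 immune markers were under 1 RPKM in every library, with PECAM1, CD3E and MS4A1 among those at 0. Endothelial markers summed to 0.328 to 1.36 in sh003 and 0.369 to 0.762 RPKM in control libraries, and immune markers to 0.460 to 0.979 in sh003 and 0.578 to 0.808 RPKM in control libraries. Of 8 epithelial markers 6 were under 1 RPKM in all 6 libraries, and the sums were 1.49 to 5.56 in sh003 and 1.59 to 3.28 RPKM in control libraries. The part of such cells in the differences was not tested, and in a bulk library more cells of a type and more RNA per cell cannot be told apart.

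**Figure D2:**
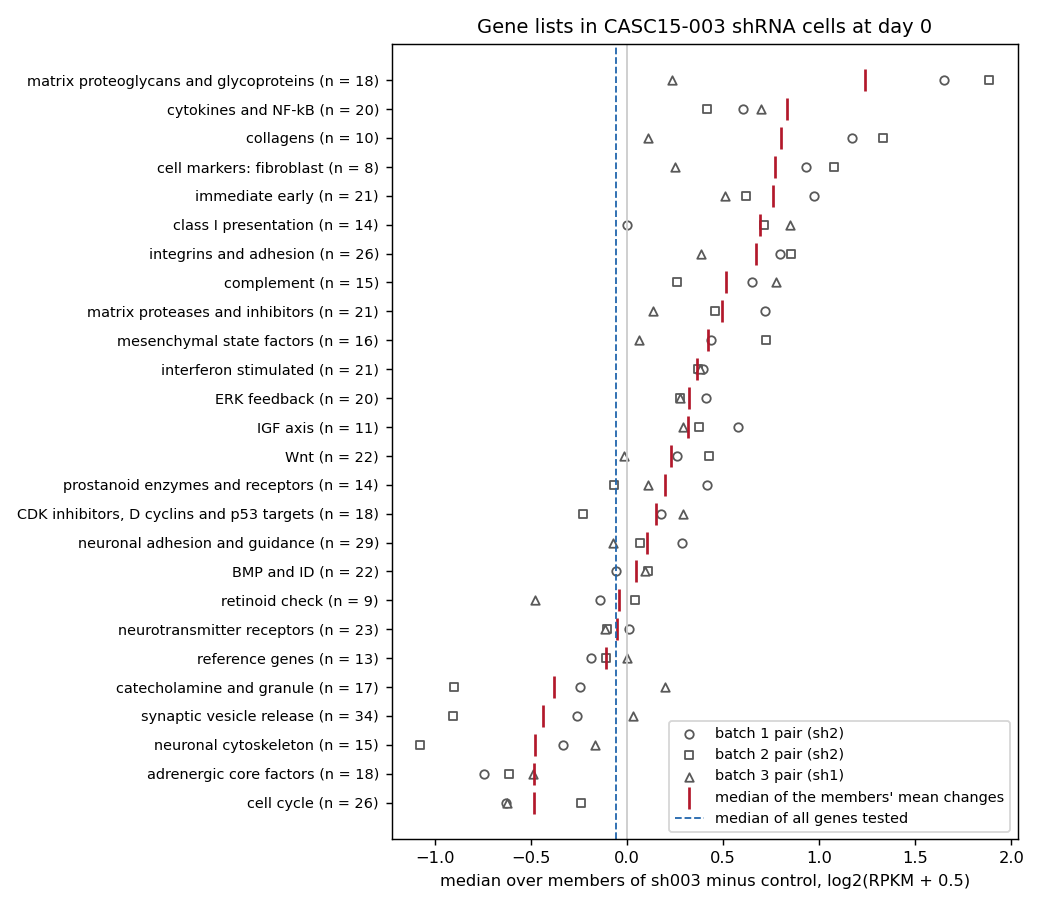
Median over the members of each gene list of the day 0 difference, sh003 minus control, in log2(RPKM + 0.5): the red bar gives the median of the mean changes, open marks the median in each batch pair, and the dashed line the median of all genes tested (-0.06). Matrix lists lie to the right with the batch 3 pair nearest 0, and adrenergic, synaptic, cytoskeletal and cell cycle lists to the left.

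Immediate early genes, which respond within minutes to growth factor and stress signals, were mostly higher. EGR1, a zinc finger factor of this class, had 51.5, 41.7 and 7.50 RPKM in sh003 libraries, against 11.6, 5.83 and 0.866 RPKM in control libraries. Both batch 3 libraries were the lowest of their group, so the groups overlapped, while the pairs differed by 2.11, 2.74 and 2.55. EGR1 rose by 2.46 ± 0.34 (SE; adjusted p = 0.0269) and its relative EGR3 by 1.38 ± 0.20 (adjusted p = 0.0309). Of the 21 immediate early genes tested these 2 were called, with a median of 0.76 over the list. In all 3 pairs 15 were higher and 1 lower, beside 13.4% and 21.4% of all genes. The list of ERK feedback inhibitors had no call among 20 genes, with 9 higher in all 3 pairs. Its leading member SPRY1, which dampens receptor tyrosine kinase signalling, had 25.0, 13.2 and 25.4 RPKM in sh003 and 1.74, 1.26 and 3.51 RPKM in control libraries (3.05 ± 0.53, adjusted p = 0.0547). Its groups did not overlap.

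Cytokine, prostanoid and growth factor genes included several further rises. PTGS1, the constitutive cyclooxygenase that begins prostaglandin synthesis, had 15, 7.40 and 27.7 RPKM in sh003 libraries, against 0.285, 0.387 and 5.24 RPKM in control libraries. The batch 3 control was far above the other controls and below all sh003 libraries. PTGS1 rose by 3.25 ± 0.53 (SE; adjusted p = 0.0467), the only call among 14 prostanoid genes. The inducible cyclooxygenase gene PTGS2 was high in both batch 3 libraries, with 0.172, 0.0735 and 100.3 RPKM in sh003 and 0, 0.0358 and 13.9 RPKM in control libraries (adjusted p = 0.536). Of 20 cytokine and NF-kB genes IL33 alone was called, and 12 were higher in all 3 pairs, as were 13.4% of all genes. CXCL16, a transmembrane chemokine outside that list, rose by 1.93, LIFR, the receptor of leukaemia inhibitory factor, by 1.63, and IGFBP3, a binding protein of insulin-like growth factors, by 2.04, each with an adjusted p of 0.0407. NRG1, an ERBB receptor ligand, rose by 1.68 (adjusted p = 0.0340). FLT1, a receptor of vascular endothelial growth factor, had 11.8, 8.91 and 1.19 RPKM in sh003 libraries, against 0.688, 0.288 and 0.425 RPKM in control libraries. The sh1 library was much the lowest of the sh003 libraries (2.61 ± 0.43, adjusted p = 0.0464).

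Among the called transcriptional regulators was ID4, an inhibitor of basic helix-loop-helix factors. ID4 (ENSG00000172201), which like CASC15 is on chromosome 6, had 51.6, 23.0 and 52.8 RPKM in sh003 libraries, against 3.19, 2.76 and 9.90 RPKM in control libraries. The groups did not overlap. The difference was 3.01 ± 0.42 (SE; adjusted p = 0.0269). ID4 was the only call among 22 BMP and ID genes. In all 3 pairs 6 were higher and 6 lower, beside 13.4% and 21.4% of all genes. CHRD, the BMP antagonist chordin, had 4.21, 3.03 and 1.60 RPKM in sh003 and 0.241, 0.147 and 0.405 RPKM in control libraries (2.11 ± 0.38, adjusted p = 0.0563), and BMPR1B, a BMP receptor, differed by -1.24 (adjusted p = 0.0880).

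The 2 called genes of synaptic release went in opposite directions, while most genes of the list had a lower mean in sh003 cells. SYT4 (ENSG00000132872, chromosome 18), a synaptotagmin of neuropeptide vesicles, had 162, 168 and 104 RPKM in sh003 libraries, against 21.2, 12.1 and 36.0 RPKM in control libraries. Its groups did not overlap, and the batch 3 pair was the closest (2.72 ± 0.40 SE, adjusted p = 0.0313). RIMBP2 (ENSG00000060709, chromosome 12), which ties calcium channels to the release site, had 10.2, 7.16 and 11.0 RPKM in sh003 libraries, against 30.7, 26.2 and 23.5 RPKM in control libraries. All sh003 libraries were lower (-1.47 ± 0.20 SE, adjusted p = 0.0263). Of 34 release genes these 2 were called, 1 in each direction. Of the 34, 5 had a higher mean and 29 a lower mean, beside 39.8% and 60.1% of all genes. In all 3 pairs 2 were higher and 12 lower, beside 13.4% and 21.4% of all genes. The median was -0.43 overall and -0.26, -0.91 and 0.03 in the pairs of batches 1, 2 and 3, so the sh1 pair was not lower. SYT9, another synaptotagmin, had 27.5, 25.4 and 28.0 RPKM in sh003 and 4.33, 2.10 and 12.7 RPKM in control libraries (2.32, adjusted p = 0.0547), and PCLO, an active zone scaffold, differed by -1.25 (adjusted p = 0.0803).

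HTR3A, a subunit of the serotonin-gated channel, had 0.268, 0.216 and 0.0431 RPKM in sh003 libraries, against 4.58, 3.31 and 0.774 RPKM in control libraries. The batch 3 library was the lowest of its group in both, and the groups did not overlap. HTR3A fell by 2.12 on the log2 scale (SE 0.28, adjusted p = 0.0263), the only call among 23 neurotransmitter receptor genes. CHRM2, a muscarinic receptor, differed by 1.69 in the other direction (adjusted p = 0.0558). CELSR2, an adhesion receptor of the cadherin superfamily, fell by 0.94 and CNRIP1, a partner of the cannabinoid receptor, by 0.60 (adjusted p = 0.0313 and 0.0407). SLIT2, a secreted axon guidance cue, rose by 1.75 (adjusted p = 0.0263), and NECAB2, a neuronal calcium-binding protein, by 2.77 (adjusted p = 0.00971). MARCHF11, a membrane-bound ubiquitin ligase, had 49.9, 41.1 and 6.82 RPKM in sh003 and 3.57, 6.53 and 0.519 RPKM in control libraries. Both batch 3 libraries were the lowest of their group, but the groups did not overlap (3.01 ± 0.41 SE, adjusted p = 0.0263). A long intergenic RNA, ENSG00000253317, and a pseudogene, ENSG00000250979, fell by 2.36 and 2.19 on the log2(RPKM + 0.5) scale (adjusted p = 0.0234 and 0.0263). RNU4-8P, a small nuclear RNA pseudogene, was called as a fall on very few reads, with 0 in all 3 sh003 libraries and 2, 3 and 5 reads in control libraries.

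None of the 18 adrenergic core factors tested was called. Of these, 10 were lower in all 3 pairs (21.4% of all genes) and 8 did not overlap downward (5.12%). ALK, the receptor kinase mutated in neuroblastoma, had 5.01, 2.56 and 3.20 RPKM in sh003 and 11.2, 15.6 and 8.37 RPKM in control libraries (-1.58, adjusted p = 0.211). Its groups did not overlap. GATA3 and PHOX2A, sympathetic transcription factors of this list, differed by 0.06 and -0.16, beside a list median of -0.49. The summed level of the list was 996 to 1327 RPKM in sh003 and 1217 to 1569 RPKM in control libraries. Among 17 catecholamine and granule genes none was called and 6 were lower in all 3 pairs, among them MAOA, which degrades catecholamines (-0.997, adjusted p = 0.263). The median of the list was -0.38, with 0.20 in the batch 3 pair. Their sum was nevertheless higher, at 2097 to 5522 RPKM in sh003 against 952 to 2037 RPKM in control libraries. In the sh003 libraries most of it came from 2 secreted peptides. VGF, a granule protein, had 3200.1, 1686 and 1012 RPKM in sh003 and 741, 558 and 369 RPKM in control libraries (1.72 ± 0.37 SE, adjusted p = 0.108). NPY, neuropeptide Y, had 1547, 536 and 781 RPKM in sh003 and 121, 68.7 and 167 RPKM in control libraries (2.95 ± 0.67 SE, adjusted p = 0.119). Neither overlapped between the groups. Of 15 neuronal cytoskeleton genes 9 were lower in all 3 pairs, with a median of -0.48 and no call.

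Cell cycle genes had slightly lower levels. All 26 tested had a lower mean in sh003 cells, as did 60.1% of all genes, and none was called. In all 3 pairs 22 were lower, as were 21.4% of all genes, and the list median was -0.49. MCM5, a subunit of the replicative helicase, had 27.4, 29.1 and 11.5 RPKM in sh003 and 43.8, 34.4 and 21.7 RPKM in control libraries (-0.59 ± 0.15 SE, adjusted p = 0.146). Of 21 interferon-stimulated genes 12 were higher in all 3 pairs, as were 13.4% of all genes. The median of the 21 was 0.36, and none was called. All 14 class I presentation genes had a higher mean in sh003 cells, as had 39.8% of all genes, but 9 of them were at 0 in both batch 1 libraries. B2M, the light chain of class I molecules, which was measured in all batches, had 75.9, 77.9 and 253 RPKM in sh003 and 28.2, 35.3 and 149 RPKM in control libraries (1.10 ± 0.20 SE, adjusted p = 0.0592). The batch 3 libraries were far above the others in both groups. The 13 reference genes had a median of -0.11.

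Across all genes tested the pair differences correlated at 0.501 between batches 1 and 2 (both sh2), 0.264 between batches 1 and 3 and 0.127 between batches 2 and 3. These pairs share no library, but batches and hairpins differ together. Over the 39 genes that rose, the median was 1.99, 1.88 and 1.65 in the pairs of batches 1, 2 and 3, which are the pairs they were called on. The sh1 pair was the smallest of the 3 in 27 of the 39 and the largest in 6. A test of sh1 minus sh2, each against its own control, called 1 gene, 0.00514% of those tested (6.51% at an unadjusted p under 0.05), and it was not among the 49. That gene was CXCL2, a neutrophil chemokine with 0, 0 and 16.8 RPKM in sh003 and 0, 0 and 0.572 RPKM in control libraries (adjusted p = 0.0460). At day 0 sh1 is 1 library against 1 control, so the test takes its spread from the other groups and assumes that this pair varies like them. The CXCL2 call was lost with the 6 libraries alone, at a pseudocount of 0.1, with quantile normalization, with voom and in 10 of 13 fits that left out 1 library. The smallest adjusted p for the hairpin difference among the 49 was 0.116, for FLT1, which does not show that the hairpins act alike.

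**Figure D3:**
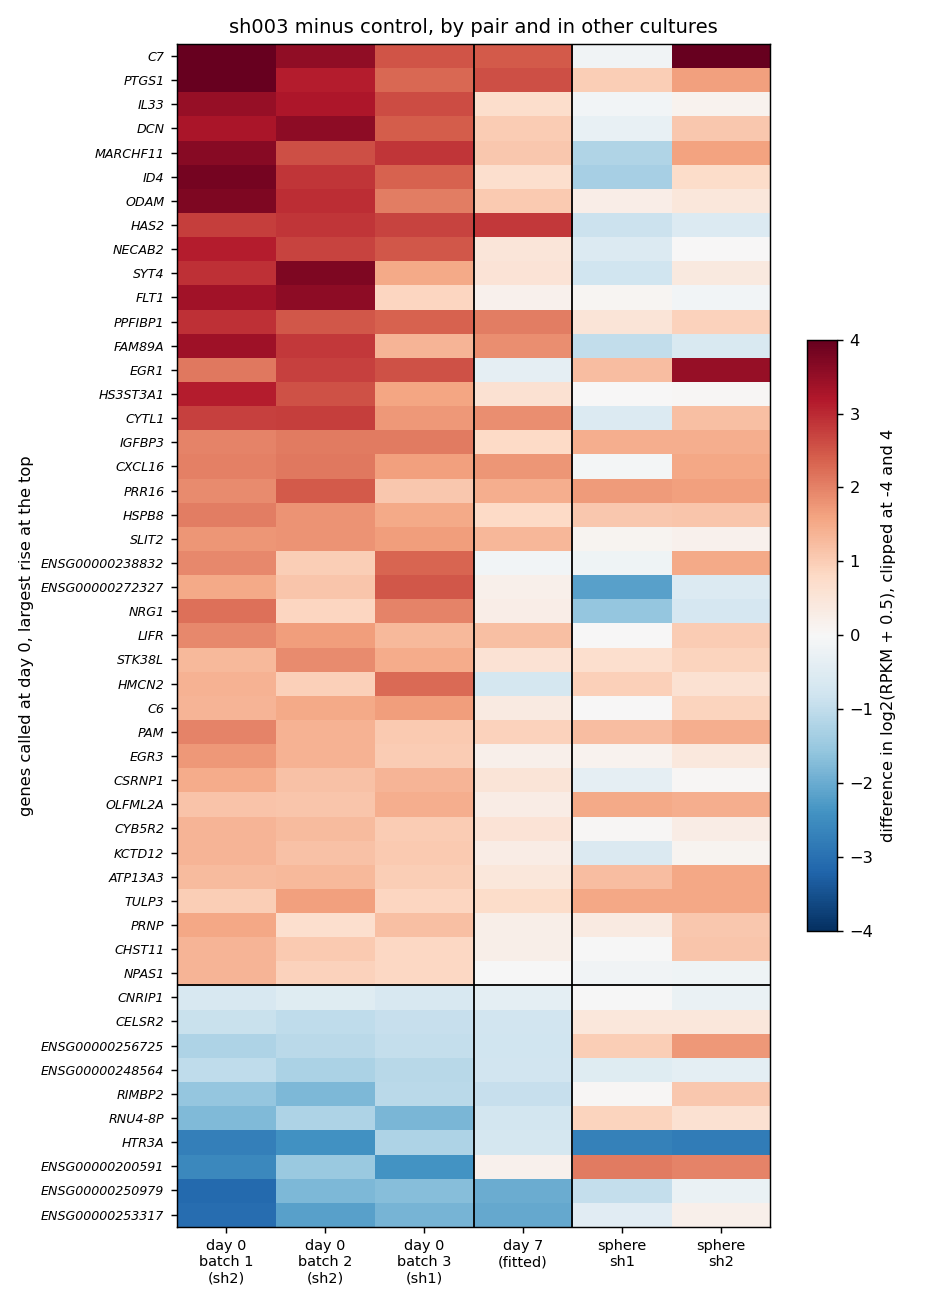
Difference, sh003 minus control, in log2(RPKM + 0.5) for each of the 49 genes called at day 0, in the pairs of batches 1, 2 and 3, at day 7 and in each sh003 sphere against the control sphere (colours clipped at -4 and 4). The 3 day 0 columns are those the genes were called on; the day 7 column is paler for most genes, and the sh1 sphere column is mixed.

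At day 7 the called genes were mostly shifted the same way by less. The groups share no library with day 0, but both changes come from 1 fit with shared batch terms, so they are not fully independent. Of the 39 that rose at day 0, 35 had a change above 0 at day 7, as had 42.6% of all genes, with a median of 0.61. The change was smaller than at day 0 for 38 of them, the exception being HAS2 (2.84 at day 7), and the day 0 changes had been selected as large. Of the 10 that fell, 9 were below 0, with a median of -0.76. None of the 49 was called at day 7, where 1 gene was called in all (0.00514%), the Notch target HEY1. A test of the day 7 minus the day 0 difference called 0 genes (0% of those tested; limma, with 731, or 3.76%, at an unadjusted p under 0.05, and 0 with voom). The sh1 library of day 7, given first below, carries a differentiation tag against its day 7 title. C7 was high in sh003 cells, with 128, 165 and 223 RPKM in sh003 libraries, against 30.2 and 27.7 RPKM in control libraries (2.45 ± 0.60 SE, adjusted p = 0.149). IL33 was much lower than at day 0, with 0.455, 1.13 and 0.602 RPKM in sh003 libraries, against 0.181 and 0.296 RPKM in control libraries. Its difference between the days was -2.39, with an adjusted p of 0.460. ID4 also was low in both groups, with 0.940, 2.33 and 1.12 RPKM in sh003 and 0.999 and 0.566 RPKM in control libraries.

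**Figure D4:**
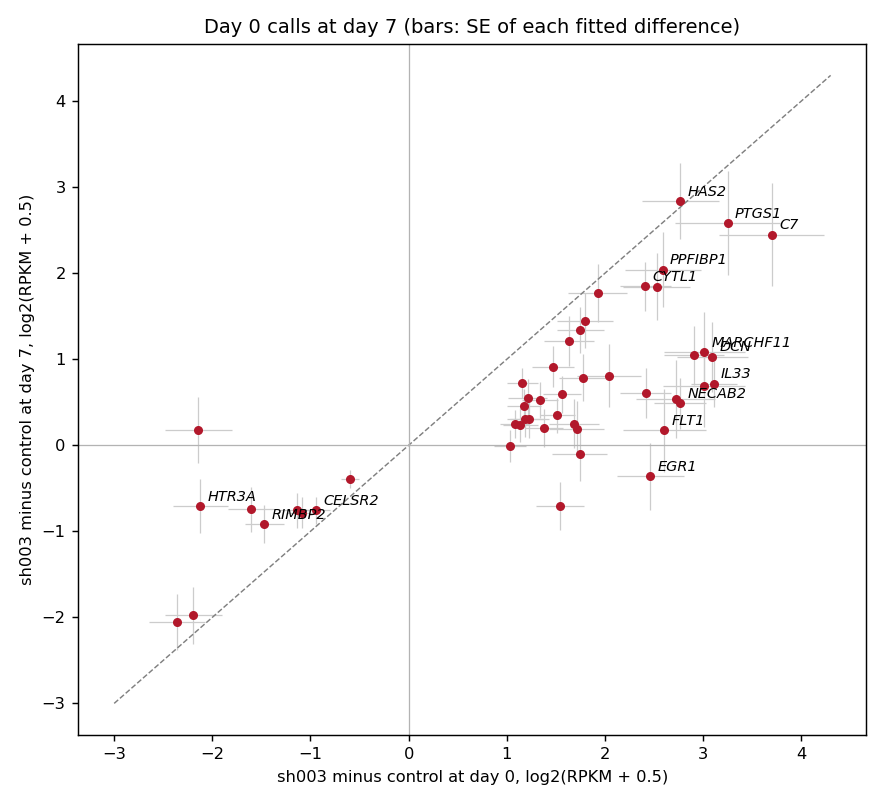
Difference, sh003 minus control, in log2(RPKM + 0.5) at day 0 (horizontal) and at day 7 (vertical) for the 49 genes called at day 0, with bars of 1 SE and a dashed line where both are equal. Most rises lie below the dashed line and above 0 at day 7, with HAS2 on the line and EGR1 below 0.

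In spheres, with 1 control library and no test, the called genes differed in level between the hairpins. Of the 39 genes that rose at day 0, 20 were higher in both sh003 spheres, as were 36.7% of all genes. Of the 39, 5 were lower in both, as were 36.5% of all genes. The median of the 39 was 0.01 in the sh1 sphere and 0.90 in the sh2 sphere. Of the 10 genes that fell at day 0, 4 were lower and 5 higher in both sh003 spheres. C7 had 9.34 RPKM with sh1 and 171 RPKM with sh2, against 10.4 RPKM in the control sphere. Only the sh2 sphere was above the control. IL33 was nearly absent, at 0 RPKM with sh1 and 0.10 RPKM with sh2, against 0.0398 RPKM in the control sphere. HTR3A was again lower, at 0.121 RPKM with sh1 and 0.0779 RPKM with sh2, against 3.53 RPKM in the control sphere. RIMBP2 had 9.83 RPKM with sh1 and 20.4 RPKM with sh2, against 9.42 RPKM in the control sphere, so it was not lower there.

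The hairpins against CASC15-004 give the nearest comparison at day 0, with 2 libraries of batch 2 that are set against the same controls. A direct test of sh003 against sh004 libraries called 1 gene, 0.00514% of those tested (6.45% at an unadjusted p under 0.05), which was IL33. It had 5.62, 5.77 and 5.62 RPKM in sh003 libraries, against 0.211 and 0.282 RPKM in sh004 libraries (2.89 ± 0.29 SE, adjusted p = 0.0325). All sh003 libraries were above both sh004 libraries, but the call was lost at a pseudocount of 0.1, with voom, without the libraries with contradictory tags and in 10 of 15 fits that left out 1 library. C7 was at 28.8 and 36.5 RPKM in sh004 libraries, below the 3 sh003 libraries, but the difference was not called (2.84 ± 0.66 SE, adjusted p = 0.496). Against the control libraries, DCN changed by 3.09 in sh003 and differed by -0.23 in sh004 cells, and ID4 changed by 3.01 in sh003 and differed by 0.56 in sh004 cells. SYT4 changed by 2.72 in sh003 and differed by 0.52 in sh004 cells, and RIMBP2 changed by -1.47 in sh003 and differed by -0.30 in sh004 cells. Other called genes also differed in sh004 cells, HTR3A by -1.47 beside -2.12 in sh003 and PTGS1 by 1.71 beside 3.25. ODAM differed by 1.53 in sh004 beside 2.91 in sh003, and CSRNP1, another gene that rose, by 1.41 beside 1.34. Against control, 0 genes (0% of those tested) were called in sh004 cells. These genes were chosen on the sh003 libraries and the controls are shared, so the values are not independent.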

How the data were processed

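Total RNA was sequenced with a stranded kit after ribosomal RNA removal, per the labels' protocols. The submitters' processing notes name TopHat, featureCounts, Subread and hg19, without versions, order, annotation or strand setting. The deposited values are RPKM, made by the authors per gene for 63677 genes with Ensembl identifiers, of which 52526 matched the reference tables. Genes that overlap another gene, such as HAS2 with HAS2-AS1, may share reads. Hairpin sites were matched to GENCODE 29 transcripts, and no coordinates were converted.

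A gene was tested if at least 2 of the 15 monolayer libraries reached an RPKM of 1. limma 3.58.1 in R 4.3.3 was fitted with a trend to log2(RPKM + 0.5), with 1 mean per group, batch as a block and a shared spread (7 residual and 3.03 prior degrees of freedom), and p-values were Benjamini-Hochberg adjusted over 19461 genes. They measure only the spread between these libraries. The block follows the titles' batch numbers. Same-batch libraries deviated together from their group means (r = 0.942, 0.802 and 0.811 across genes). Batch 1 lay far from the other batches on the main axis of variation, the first principal component, with 68.7% of the variance. Deviations in batches 2 and 3 both carry that shift, so these values do not test whether batches 2 and 3 are paired rightly. Multiplying by gene length and library total gave back whole reads (100% of values within 0.01), which serve for depth, a voom alternative and spheres, whose deposited values rest on 10 library totals in rotation and were recomputed with each library's own.

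Named genes were called genes with a mean of at least 2 RPKM in the higher group and 1 sign in all 3 pairs, up to 16 per direction by size, the label's markers, CASC15, SOX4, USP36, CHD7 and SOX9, and up to 4 members per list with the smallest p. CXCL2, HAND2, TH, PHOX2A, GATA3 and the further calls named were added after their values were seen. The members and gene lists were chosen with earlier results of these data known. The fit was also run on data simulated from the same model, with independent noise in each library. That run checks the code and does not bear on how the counts move between alternatives.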

Additional observations from a re-analysis of the deposited data

Results flagged for a closer look

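IL33 differed between the cells of the CASC15-003 and CASC15-004 hairpins at day 0 by 2.89 in log2(RPKM + 0.5) in a direct limma test (adjusted p = 0.0325). It was higher in 3 of 3 sh003 libraries than in both sh004 libraries, which are all of batch 2. The call was lost at a pseudocount of 0.1, with voom, without the libraries with contradictory tags and in 10 of 15 fits that left out 1 library. CXCL2 differed between hairpins sh1 and sh2 of CASC15-003, each against its own control, by 4.01 (limma, adjusted p = 0.0460), and this rests on the single sh1 library of batch 3 and its 1 control, so hairpin and batch cannot be told apart. All 4 sh2 and control libraries of batches 1 and 2 were at 0, the spread came from other groups, and the call was lost with the 6 libraries alone, at a pseudocount of 0.1, with quantile normalization, with voom and in 10 of 13 fits that left out 1 library.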

How the results depend on the processing

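The count of 49 genes depended on the replicate block and on which libraries set the spread. It was 1 with no replicate block and 0 with the 6 libraries alone (2682 at an unadjusted p under 0.05), 10 with no filter on low values, 2 without the libraries with contradictory tags, 0 without batch 1 at day 0 (992 unadjusted), 0 without batch 2 (1706 unadjusted), 130 without batch 3 (31 of the 49 among them), and 208 without the 4 sh004 libraries, an alternative chosen after seeing the data, in which all 49 remained. It was 39 with voom, with 33 shared. Leaving out 1 library gave 1 to 262 calls. For sh003 against sh004, with 1 call, it was 0 at a pseudocount of 0.1 and with voom, 5 with no filter, and 0 to 3 without 1 library. For day 7 minus day 0, with 0 calls, it was 10 with no filter and 0 to 5 without 1 library. For sh1 minus sh2, with 1 call, it was 2 with no replicate block, 4 at a pseudocount of 1, 325 with no filter, 0 to 4 without 1 library, and 0 with the 6 libraries alone, a pseudocount of 0.1, quantile normalization, voom, without contradictory tags, without the sh004 libraries and without the genes peculiar to batch 1 (the last 2 chosen after seeing the data). The cause was not tested. None of the 49 changed sign in these alternatives. USP36, with a change near 0 and no call, turned positive with median-ratio scaling (0.035), quantile normalization (0.0062), without contradictory tags (0.0091), without batch 2 at day 0 (0.0061) and in some fits without 1 library (range -0.030 to 0.015). Of the other values of the genes named by rule, 537 kept their sign and side of the threshold and 327 lost the call. List medians changed sign only for the BMP, neurotransmitter receptor, neuronal adhesion and retinoid lists, all between -0.07 and 0.11. Depth limits genes of a few reads most in batch 1, at 12.1 M reads in sh003 and 11.9 M in control cells.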
